A study of Mus musculus with 9 samples.

Results

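Whole back skin of mice treated with imiquimod (IMQ) cream was compared with whole back skin of untreated mice by bulk RNA sequencing. The comparison used 6 of the 9 libraries in the series, control 1 to 3 and IMQ 1 to 3, which were chosen by their labels alone, and all 29205 genes of the deposited table. The series was made to study a herbal decoction in psoriasis-like skin inflammation, and the contrast described here sets skin of IMQ mice that received no decoction beside untreated skin. The 3 libraries of IMQ mice that also received the decoction were used only in an alternative fit of all 9 libraries.

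All mice were male BALB/c, 6 to 8 weeks old, kept specific pathogen-free and fed adaptively for 7 days. Every back was shaved and cleared of hair with depilatory cream, in the control group as in the IMQ group. The IMQ mice then received 62.5 mg of cream with 5% IMQ on the back each day, 5 days in a row, and the control mice received nothing, with no vehicle cream named. Back skin was collected on day 13, and which of these days carried the cream is not given in the sources used here. The labels give 3 samples per group without saying that each came from a different mouse, so the p-values below measure the spread between these samples.

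IMQ activates Toll-like receptor 7, and in mouse skin it elicits a reaction led by IL-23 and IL-17, in which keratinocytes thicken, cornify abnormally and release chemokines that attract neutrophils. Skin is layered: a cornifying epidermis rests on a collagen-rich dermis with vessels and nerves, fat and a thin sheet of striated muscle lie beneath, and hair follicles with sebaceous glands and melanocytes reach down from the surface. Follicles cycle between growth and rest, and the keratins of the hair shaft and of the inner root sheath that guides it are made only while a hair grows.

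Counts were scaled to CPM with TMM factors, and CPM values are given for libraries 1, 2 and 3 of each group in that order. Of 15976 genes with enough reads to be tested, 3854 were higher and 4291 lower in IMQ skin by edgeR's quasi-likelihood test. A call needed a Benjamini-Hochberg adjusted p below 0.05 together with a log2 fold change beyond 0.58 in either direction. The share of tested genes called was thus 51.0%, with 24.1% higher and 26.9% lower. For 70.2% of them every CPM of 1 group lay above every CPM of the other. The counts of each gene list below are to be read against these shares. The median log2 fold change over all tested genes was -0.06. With library totals in place of TMM factors it was -0.51, and 2390 genes were called higher and 6854 lower, so 25.9% of the calls were higher where TMM gave 47.3%. Library totals lay between 16915191 and 19609878 counts, with TMM factors of 1.13 to 1.21 in control and 0.819 to 0.929 in IMQ skin, and which scaling is nearer to the RNA content of the tissue was not tested. Keratinocyte, fibroblast and endothelial markers (Krt5, Col1a1, Pecam1) were present in all 6 libraries, as the tissue label requires, and the Y-linked Ddx3y (72.2 to 104 CPM) matched the labelled sex. Because whole tissue was sequenced, fewer cells of a type and less RNA per cell cannot be told apart in any of the values below.

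**Figure D1:**
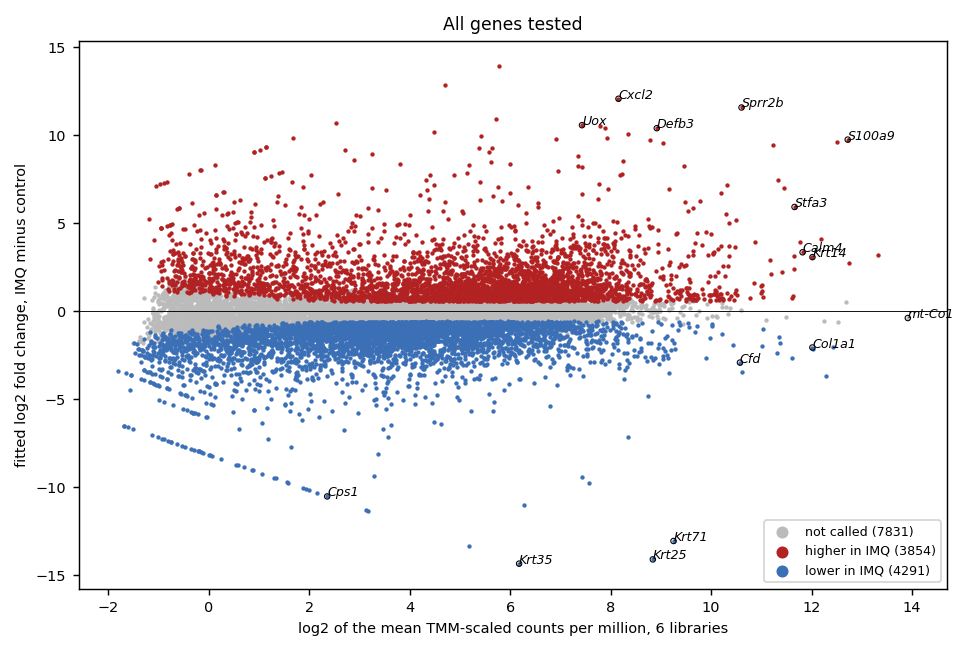
Each point is 1 of the 15976 tested genes, with the log2 of its mean CPM over the 6 libraries on the x axis and the fitted log2 fold change, IMQ minus control, on the y axis; red points were called higher (3854), blue points lower (4291) and grey points neither. The labelled hair keratins Krt25, Krt35 and Krt71 lie at the bottom and Cxcl2, Sprr2b and Defb3 near the top, and the straight lines of points at the left are genes without counts in a group, whose fitted values are no estimate of a fold.

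The most abundant transcripts, compared per length as mean FPKM, differed between the groups. In control skin the highest were the mitochondrial mt-Co1 (13196 FPKM), mt-Cytb (7274) and mt-Nd1 (7030.2), then Cfd (3385), which encodes the complement protease adipsin of fat cells, and mt-Nd2 (3147). In IMQ skin the highest were S100a9 (21924 FPKM) and S100a8 (14289), the subunits of the neutrophil and keratinocyte alarmin calprotectin. They were followed by Stfa3 (13136), a stefin that inhibits cysteine proteases, mt-Co1 (7434) and Calm4 (6076), a calmodulin-like protein of differentiated keratinocytes. S100a8 counted 5.27, 6.26 and 33.5 CPM in control skin and 9846, 12637 and 12495 CPM in IMQ skin, and S100a9 counted 10.3, 6.72 and 29.9 CPM in control skin and 10803, 14574 and 15061 CPM in IMQ skin. The groups lay far apart for both genes (log2 fold changes 9.60 ± 0.93 (SE) and 9.75 ± 0.75 (SE)), and control 3 had the highest control level of each. The mitochondrial mt-Co1, mt-Cytb and mt-Nd1 were not called, but were called lower under library totals (adjusted p = 0.0288, 0.00592 and 0.00874), the last 2 also without control 3 (adjusted p = 0.0225 and 0.0293), with no filter and by both limma fits of FPKM, and mt-Cytb also by DESeq2 (adjusted p = 0.00659) and with all 9 libraries in the fit (adjusted p = 0.0486). Calm4 rose from 646, 489.9 and 807 CPM to 4591, 6714 and 8465 CPM (log2 fold change 3.35 ± 0.33 (SE), edgeR adjusted p = 0.000104).

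Ranked by the fitted log2 fold change, which is no estimate of a fold for a gene without counts in a group, the first 10 genes called higher, with groups that did not overlap and a mean of at least 1 CPM, included chemokines and genes of the cornified envelope. Cxcl2, a ligand of the neutrophil receptor Cxcr2, had 0.282, 0.0454 and 0.0483 CPM in control skin and 163, 776 and 772 CPM in IMQ skin, a log2 fold change of 12.08 ± 0.94 (SE) with an edgeR adjusted p of 3.83e-05. Its neighbour Cxcl3 had no count in any control library and 30.2, 178 and 122 CPM in IMQ skin, at least 784-fold higher against the floor of 3 counts per library. Both were lowest in IMQ 1 among the IMQ libraries, and that library still lay far above every control. Sprr2b, Sprr2f, Sprr2j-ps and Sprr2a1 of the small proline-rich family, Lce3b of the late cornified envelope family, the beta-defensin Defb3 and the serine protease inhibitor Serpinb3d made up 7 more of the 10. Sprr2a1 had no count in control skin and is known only as at least 81.7-fold higher, whereas Lce3a (log2 fold change 9.82 ± 0.28 (SE)) and S100a9 (9.75 ± 0.75 (SE)), with counts in both groups, ranked below it. Defb3 rose from 0.565, 0.363 and 1.21 CPM to 836, 1208 and 858 CPM (log2 fold change 10.40 ± 0.43 (SE), edgeR adjusted p = 4.62e-06). The last was Uox, urate oxidase, an enzyme best known from liver, with 0.188, 0.136 and 0.338 CPM in control skin and 298, 475 and 261 CPM in IMQ skin (log2 fold change 10.57 ± 0.40 (SE), edgeR adjusted p = 4.05e-06).

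In the same ranking the first 10 of the genes called lower included keratins of the growing hair. Krt71, an inner root sheath keratin, had 1165, 759 and 1733 CPM in control skin and 0.0599, 0.359 and 0 CPM in IMQ skin, a log2 fold change of -13.07 ± 0.66 (SE) with an edgeR adjusted p of 9.14e-06. Its partner Krt25 had 966, 594 and 1189 CPM in control skin and 2 counts in the IMQ libraries together, a count ratio of 20256-fold (95% interval 5607 to 167267) that covers counting error only. Krt35, a hair shaft keratin, had 136, 93.6 and 204 CPM in control skin and no count in IMQ skin, at least 711-fold lower. Krt26, Krt28 and Krt72 of the inner root sheath fell with them. The other members of the 10 each had no count in any IMQ library: Gm49425, a gene model on chromosome 15, was at least 356-fold lower, the urea cycle gene Cps1 at least 50.3-fold, the channel gene Calhm4 at least 43.8-fold and the lysozyme-like Lyg2 at least 39.3-fold. Their place among the 10 rests on fitted values that are no estimate, and Krt27, with counts in both groups, ranked below them at a log2 fold change of -9.42 ± 0.44 (SE). In each of the 10 genes control 3 was the highest library and control 2 the lowest control, so the control libraries differed among themselves.

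Promoter sequences of the genes at both ends of this range are shown because members of a family moved together. RefSeq (GRCm38.p6) held the 250 bases before the start for 16 of these 20 genes, 9 that rose and 7 that fell, and the motifs were chosen after the sequences had been seen. In the runs below, written 5′ to 3′ on the gene's strand and ended before the start in both RefSeq and the gene annotation, capitals mark the longest run that the Cxcl2 and Cxcl3 promoters share (GGGAATTTCCC, the letters of a kappa-B site), an AP-1 site (TGANTCA) or a TATA box (TATAAA). Each was searched on both strands.
Cxcl2, chr5:90903649-90903870, plus strand: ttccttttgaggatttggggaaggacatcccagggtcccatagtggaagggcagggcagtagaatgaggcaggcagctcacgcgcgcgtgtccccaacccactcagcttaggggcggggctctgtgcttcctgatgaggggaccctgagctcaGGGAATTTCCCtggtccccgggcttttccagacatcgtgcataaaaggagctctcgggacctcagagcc
Cxcl3, chr5:90785851-90786100, plus strand: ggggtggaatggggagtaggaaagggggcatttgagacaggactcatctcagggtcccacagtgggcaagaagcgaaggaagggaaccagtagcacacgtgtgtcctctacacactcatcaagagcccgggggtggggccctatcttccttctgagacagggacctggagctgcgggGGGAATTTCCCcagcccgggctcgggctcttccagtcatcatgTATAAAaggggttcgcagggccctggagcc
Sprr2f, chr3:92364937-92365186, plus strand: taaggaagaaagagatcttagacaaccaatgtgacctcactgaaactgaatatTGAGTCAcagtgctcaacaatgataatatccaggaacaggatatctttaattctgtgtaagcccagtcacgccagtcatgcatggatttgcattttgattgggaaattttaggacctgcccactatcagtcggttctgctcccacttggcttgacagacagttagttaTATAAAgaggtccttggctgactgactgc
Krt71, chr15:101743110-101743347, minus strand: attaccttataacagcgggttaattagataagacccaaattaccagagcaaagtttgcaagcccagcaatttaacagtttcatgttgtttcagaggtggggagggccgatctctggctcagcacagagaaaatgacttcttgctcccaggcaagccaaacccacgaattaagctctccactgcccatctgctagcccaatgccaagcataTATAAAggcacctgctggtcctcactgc
The shared run began 97 bases before the start of Cxcl2 and 73 bases before that of Cxcl3, and was found in no other of the 16 promoters. It occurred in 14 of the 32841 mouse promoters of the same length that were searched, or 0.0426%, and the search did not cover every chromosome. Because the run was taken from the Cxcl2 and Cxcl3 promoters, its presence in both was fixed in advance. Its rarity elsewhere therefore says nothing on how these genes are regulated. The AP-1 letters were found in Sprr2b and Sprr2f, 195 and 197 bases before the start, and in 6.75% of all promoters. TATAAA was found in 4 of the 9 promoters of genes that rose, in 7 of the 7 of genes that fell and in 12.4% of all promoters. The genes that fell include the related keratins Krt25, Krt26, Krt28, Krt71 and Krt72, and the only match in Krt72 lay 203 bases before the start. The TATAAA of Sprr2b and the whole stretch searched for Uox lie past the start that the gene annotation gives. These are matches of letters, not measured binding.

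**Figure D2:**
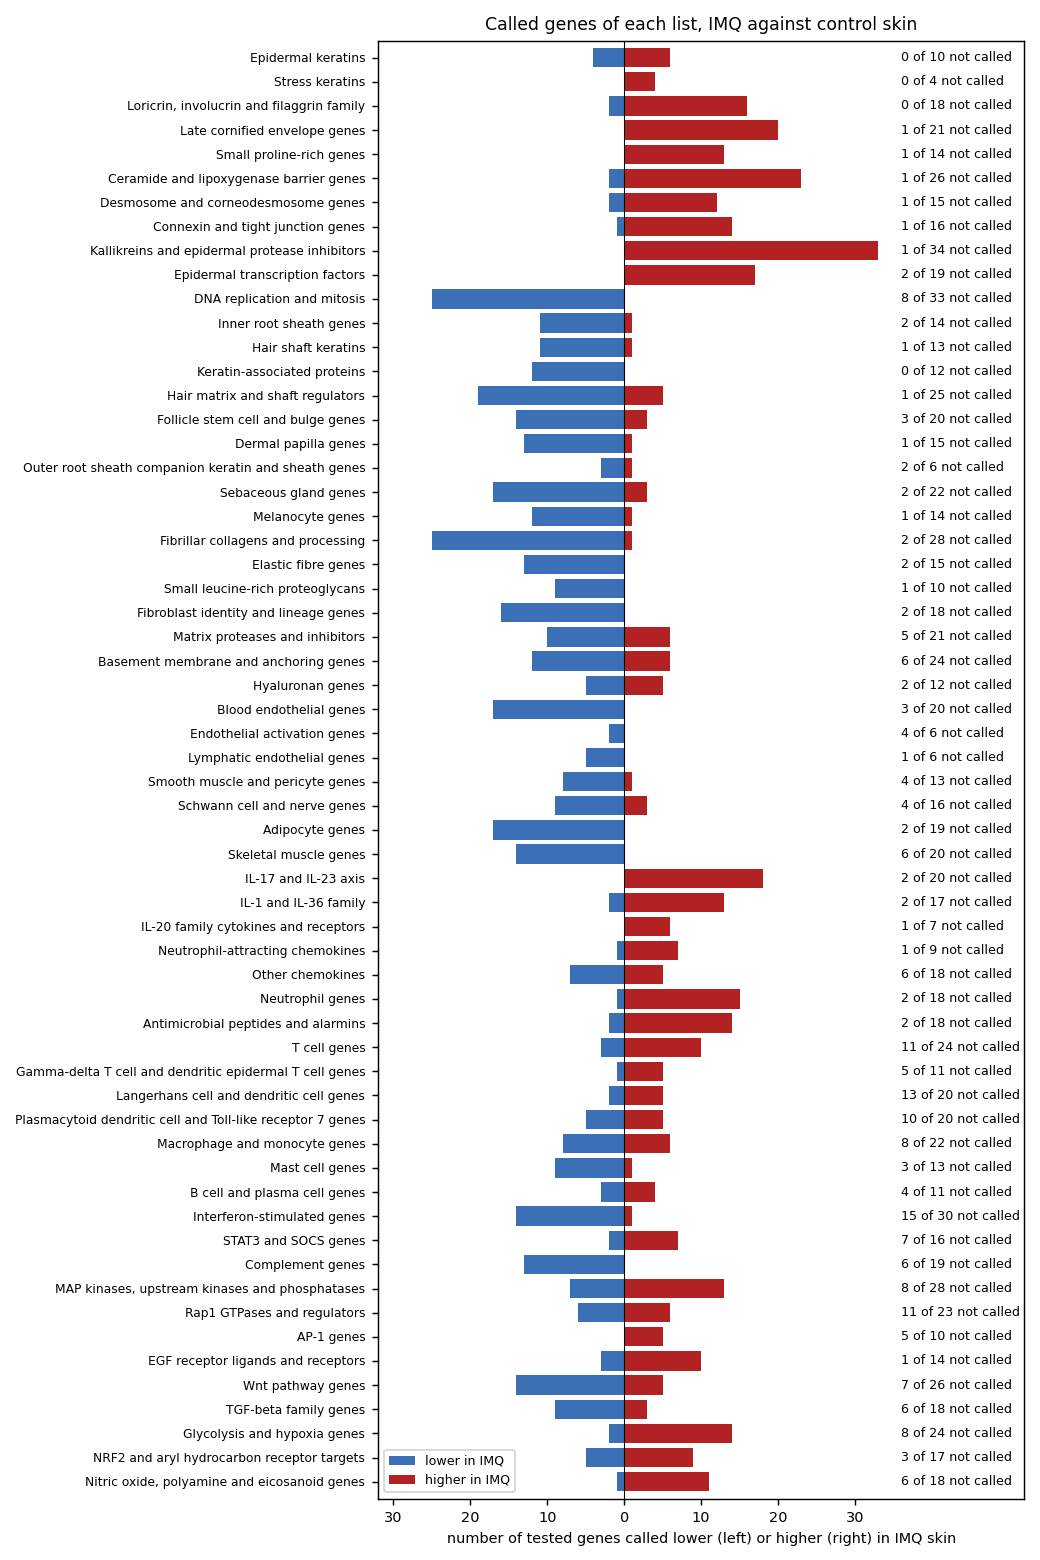
Bars give, for each of the gene lists described in the text, the number of tested genes called higher (red, right) or lower (blue, left) in IMQ skin, with the number not called at the right edge. Epidermal lists extend mainly to the right and follicle, dermal and fat lists mainly to the left. In the list of DNA replication and mitosis, whose genes dividing cells of any part of the skin express, 25 of 33 were lower and none higher.

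In the epidermis, keratins rose in the proliferating and in the differentiated layers while a few specialised ones fell. Of 10 tested keratins of the interfollicular epidermis, 6 were higher and 4 lower, and their sum was 5510 to 9320 CPM in control and 34900 to 47400 CPM in IMQ skin. Krt14, the keratin of the basal layer, rose from 822, 697 and 1125 CPM to 8369, 7138 and 6732 CPM (log2 fold change 3.07 ± 0.28 (SE), edgeR adjusted p = 6.94e-05), whereas its partner Krt5 rose less, from 823, 775 and 1134 CPM to 3108, 2365 and 2833 CPM (log2 fold change 1.60 ± 0.23 (SE)). Krt1 (log2 fold change 3.22 ± 0.37 (SE)) and Krt10 (2.72 ± 0.40 (SE)), the pair of the spinous layer, and Krt80 (3.37 ± 0.24 (SE)) rose too, with no overlap between the groups. Krt2, a keratin of the upper spinous and granular layers, went the other way, from 11.8, 26.6 and 23.1 CPM to 1 count in each IMQ library, a count ratio of 305-fold (95% interval 104 to 1481). Krt77, another type II keratin best known from sweat ducts and upper epidermis, fell from 667, 389 and 878 CPM to 2.88, 4.53 and 6.26 CPM (log2 fold change -7.15 ± 0.43 (SE), edgeR adjusted p = 1.69e-05). Krt15 of basal and bulge cells (log2 fold change -0.78 ± 0.16 (SE)) and Krt79 of the follicle opening (-2.15 ± 0.27 (SE)) also fell.

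The 4 stress keratins, which are scarce in resting interfollicular epidermis and appear in wounded or psoriatic skin, were all higher, and their sum was 435 to 771 CPM in control and 11100 to 18300 CPM in IMQ skin. Krt16 had 36.6, 24.1 and 71.3 CPM in control skin and 5001, 6775 and 4923 CPM in IMQ skin, Krt6b had 21.7, 14.2 and 52.8 CPM in control skin and 4917, 6679 and 3851 CPM in IMQ skin and Krt6a had 16.1, 11.4 and 30.2 CPM in control skin and 1388, 1923 and 899.8 CPM in IMQ skin. Control 3 was the highest control library and IMQ 2 the highest IMQ library for each of them, and no groups overlapped. The log2 fold changes were 6.98 ± 0.50 (SE), 7.45 ± 0.61 (SE) and 6.19 ± 0.48 (SE), while that of Krt17 was 2.01 ± 0.32 (SE), from 476, 385 and 617 CPM to 1687, 2884 and 1382 CPM. Krt6a and Krt6b are near-identical copies, so how reads were split between them is uncertain.

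**Figure D3:**
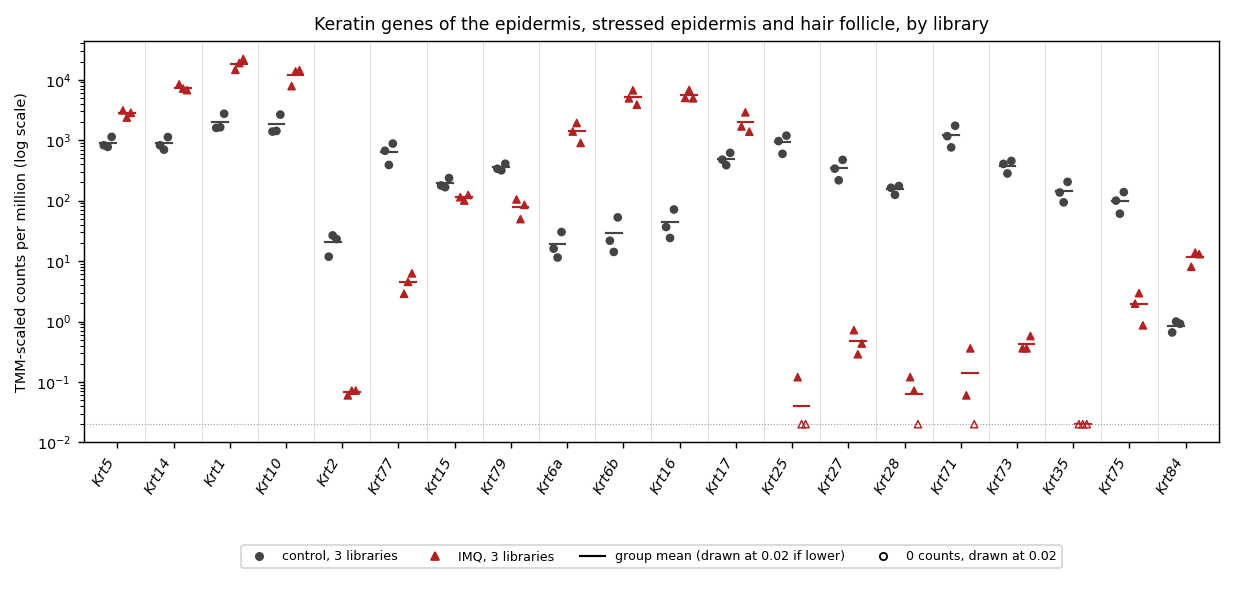
CPM of 20 keratin genes in each library on a log axis, with control libraries as grey circles, IMQ libraries as red triangles, bars at the group means and open symbols for 0 counts. Krt6a, Krt6b and Krt16 lie far higher in every IMQ library, whereas the inner root sheath keratins Krt25, Krt27, Krt28, Krt71 and Krt73 drop below 1 CPM.

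Genes of the cornified envelope, the protein shell of dead surface cells, rose almost throughout. In the loricrin, involucrin and filaggrin family 16 of 18 tested genes were higher and 2 lower, with a median log2 fold change of 3.48. Lor (loricrin) had 354, 326 and 622 CPM in control skin and 3306, 7154 and 9323 CPM in IMQ skin (log2 fold change 3.93 ± 0.47 (SE)), Ivl (involucrin) 85.2, 41.1 and 85.3 CPM in control skin and 421, 611 and 759 CPM in IMQ skin (3.08 ± 0.34 (SE)) and Flg (filaggrin) 182, 191 and 248 CPM in control skin and 1729.6, 2722 and 3485 CPM in IMQ skin (3.67 ± 0.31 (SE)). All 3 were lowest in IMQ 1 among the IMQ libraries. Larger rises were seen for Rptn, repetin of the fused S100 type (7.20 ± 0.31 (SE)), Cnfn, cornifelin (5.51 ± 0.34 (SE)), and Casp14, the caspase that helps process filaggrin (5.19 ± 0.26 (SE)). Crnn, cornulin, fell from 42.4, 19.6 and 42.1 CPM to 2.70, 3.52 and 4.39 CPM (log2 fold change -3.30 ± 0.34 (SE)). Flg2, a filaggrin-like gene, was called lower (log2 fold change -1.40 ± 0.45 (SE), edgeR adjusted p = 0.0252) although its groups overlapped, and this call was lost without control 1, control 3 or IMQ 2 (adjusted p = 0.0665, 0.0775 and 0.0888).

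Among the late cornified envelope genes, 20 of 21 were higher and none lower, with 2 subfamilies at different levels of change. All 6 Lce3 genes rose, with Lce3b going from 0.235, 0.363 and 0.290 CPM to 359.8, 520.2 and 447 CPM (log2 fold change 10.51 ± 0.27 (SE)), Lce3a reaching 9.82 ± 0.28 (SE) and Lce3f 8.26 ± 0.33 (SE). The called Lce1 genes had log2 fold changes between 2.37 (Lce1l) and 3.73 (Lce1e). Lce1m was not called (80.3, 69.5 and 109 CPM in control skin and 33.7, 57.5 and 104 CPM in IMQ skin, log2 fold change -0.41 ± 0.37 (SE), adjusted p = 0.362), and its groups overlapped. No Lce3 gene exceeded the 5.08 CPM of Lce3c in a control library.

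The small proline-rich genes, whose products cross-link the envelope and are raised in stressed epithelia, were higher in 13 of 14, with a median log2 fold change of 9.59 (9.01 with genes at the floor set to their bound or count ratio). Their sum was 126 to 265 CPM in control and 12500 to 18200 CPM in IMQ skin. Sprr2b had 0.330, 0.318 and 2.42 CPM in control skin and 2434, 3733 and 3181 CPM in IMQ skin (log2 fold change 11.58 ± 0.81 (SE), edgeR adjusted p = 2.63e-05), Sprr2f 0.188, 0.409 and 0.435 CPM in control skin and 405, 642 and 369.8 CPM in IMQ skin (10.39 ± 0.38 (SE)), and Sprr2a1 no count in control skin and 8.57, 11.4 and 14.5 CPM in IMQ skin, at least 81.7-fold higher. The pseudogene Sprr2j-ps had a count ratio of 2215-fold (95% interval 758 to 10745). Sprr2 members are close copies, so the level of any of them is less certain than the family sum. Sprr4 was not called (28.8, 18.4 and 20.6 CPM in control skin and 18.8, 16.9 and 16.3 CPM in IMQ skin).

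Genes for the lipids of the barrier mostly rose with those of the envelope, and lipids were not measured. Of 26 genes for ceramides, very long fatty acids and the lipoxygenase pathway, 23 were higher and 2 lower (median log2 fold change 2.66). Degs2, which hydroxylates ceramides, rose from 5.98, 5.90 and 8.07 CPM to 147, 213 and 230.0 CPM (log2 fold change 4.89 ± 0.23 (SE)), Sdr9c7, a dehydrogenase of the acylceramide pathway, by 4.35 ± 0.25 (SE), and Nipal4, a membrane protein mutated in ichthyosis, by 3.73 ± 0.26 (SE). Abca12, the lipid transporter of lamellar granules (3.55 ± 0.28 (SE)), Cers3, a ceramide synthase (3.24 ± 0.26 (SE)), and Alox12b, the 12R-lipoxygenase (3.61 ± 0.24 (SE)), rose as well. The exceptions were Alox12e, an epidermal-type lipoxygenase, which fell from 45.5, 33.2 and 53.1 CPM to 7.85, 3.30 and 5.82 CPM (-2.95 ± 0.31 (SE)), and Sptssb, a small subunit of serine palmitoyltransferase (-2.79 ± 0.55 (SE)).

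Most junction genes rose. Of 15 desmosome genes 12 were higher and 2 lower, and of 16 connexin and tight junction genes 14 were higher and 1 lower. Cdsn, corneodesmosin of the surface layers, rose from 172, 157 and 222 CPM to 1821, 2644 and 2872 CPM (log2 fold change 3.73 ± 0.26 (SE)), and the desmosomal cadherins Dsg1b (3.49 ± 0.27 (SE)), Dsc1 (3.13 ± 0.28 (SE)), Dsc2 (1.86 ± 0.43 (SE)) and Dsg1a (1.66 ± 0.25 (SE)) rose with it. Dsg2 (-1.53 ± 0.27 (SE)) and the plakophilin Pkp2 (-4.00 ± 0.30 (SE)), both best known from simple epithelia and heart, fell. Among the connexins, Gjb6 rose from 12.3, 8.67 and 16.3 CPM to 351, 502 and 349 CPM (5.01 ± 0.29 (SE)) and Gjb2 from 149, 105 and 209 CPM to 1254, 1844 and 1209 CPM (3.22 ± 0.30 (SE)), and the tight junction scaffold Tjp3 rose by 2.90 ± 0.22 (SE). Cldn7, a claudin with 2.50, 1.59 and 1.16 CPM in control skin and 0.360, 0.503 and 0 CPM in IMQ skin, was called lower (-2.56 ± 0.70 (SE)), a call lost without control 1 (edgeR adjusted p = 0.0535).

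Proteases and protease inhibitors of the shedding surface rose almost without exception: 33 of 34 were higher and none lower, with a median log2 fold change of 4.45 and a sum of 1120 to 1850 CPM in control and 19600 to 26800 CPM in IMQ skin. The kallikrein Klk6 rose from 25.1, 19.6 and 36.4 CPM to 1386, 1754 and 1554 CPM (log2 fold change 5.86 ± 0.29 (SE)) and Klk14 from 0.0471, 0.409 and 0.0483 CPM to 79.6, 133 and 73.9 CPM (9.07 ± 0.52 (SE)). The stefin Stfa3 rose from 109, 70.7 and 135 CPM to 5119.7, 6265 and 7734 CPM (5.92 ± 0.36 (SE)), and the serpin Serpinb3a from 2.59, 5.72 and 5.70 CPM to 991, 1797 and 1437 CPM (8.23 ± 0.43 (SE)). Serpinb3d had no count in control skin and 35.3, 69.5 and 50.6 CPM in IMQ skin, at least 368-fold higher. Serpinb3 and stefin genes form clusters of close copies, so the split between members is uncertain. Proteases and their inhibitors thus rose side by side, and the activity left between them was not measured.

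Regulators of differentiation were mostly higher, with 17 of 19 epidermal transcription factors called higher and none lower (14 higher and 2 lower under library totals). Grhl3, a grainyhead factor of barrier formation, rose from 19.3, 19.8 and 35.3 CPM to 322, 426 and 316 CPM (log2 fold change 3.84 ± 0.28 (SE)). Ovol1, which holds back proliferation, rose from 17.6, 17.6 and 28.9 CPM to 174, 285 and 254 CPM (3.48 ± 0.27 (SE)). Prdm1, a repressor of the terminal layers, rose from 22.2, 17.9 and 33.2 CPM to 196, 274 and 266 CPM (3.33 ± 0.26 (SE)). Gata3 rose less (1.03 ± 0.25 (SE)) and was not called under library totals (adjusted p = 0.0878).

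Genes of DNA replication and mitosis fell in IMQ skin. Of 33 tested, 25 were lower and none higher, with a median log2 fold change of -0.96, and the sum was 1530 to 1930 CPM in control and 729 to 1150 CPM in IMQ skin. Mki67, the proliferation antigen Ki-67, had 269, 162 and 256 CPM in control skin and 146, 68.2 and 91.7 CPM in IMQ skin (log2 fold change -1.17 ± 0.30 (SE), edgeR adjusted p = 0.0102). Top2a, a topoisomerase of dividing cells, had 216, 157 and 202 CPM in control skin and 99.4, 46.6 and 61.8 CPM in IMQ skin (-1.47 ± 0.27 (SE)). Pcna, the replication clamp, had 148, 126 and 135 CPM in control skin and 80.7, 71 and 68.2 CPM in IMQ skin (-0.89 ± 0.12 (SE)). Tyms, which makes thymidylate (-1.50 ± 0.19 (SE)), and Kif23, a kinesin of cell division (-1.44 ± 0.30 (SE)), fell too. For each of these 5 genes IMQ 1 was the highest IMQ library and still lay below every control. The growing hair matrix is a proliferating tissue whose genes also fell, as given next, and its part in these values was not tested.

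The inner root sheath had the lowest median of all the gene lists. In that list 11 of 14 were lower and 1 higher, with a median log2 fold change of -7.92 (-6.42 with floor genes at their bound or ratio) and a sum of 2810 to 5780 CPM in control and 246 to 297 CPM in IMQ skin. Krt27 had 338, 217 and 472 CPM in control skin and 0.719, 0.287 and 0.431 CPM in IMQ skin (log2 fold change -9.42 ± 0.44 (SE)), and Tchh, trichohyalin, which hardens the sheath, had 740.5, 475 and 1277 CPM in control skin and 28.4, 31.7 and 26.5 CPM in IMQ skin (-4.85 ± 0.38 (SE)). Krt28 had a count ratio of 2277-fold (95% interval 779 to 11043), and Krt26 and Krt72 had no count in IMQ skin and were at least 88.1-fold and 85.5-fold lower. Tchh thus remained measurable where the sheath keratins were almost lost. The member that rose was Gata3, a factor of the sheath that the interfollicular epidermis also uses, with 35, 41.1 and 71.9 CPM in control skin and 90.2, 103 and 109 CPM in IMQ skin.

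Of 13 hair shaft keratins 11 were lower, and Krt87 and Krt33a, like Krt35, had no count in IMQ skin (at least 35.9-fold and 29.4-fold lower). Krt84, which is known from tongue and nail, rose from 0.659, 0.999 and 0.918 CPM to 8.03, 13.8 and 13 CPM (log2 fold change 3.74 ± 0.31 (SE), edgeR adjusted p = 4.60e-05). The keratin-associated proteins, which cross-link shaft keratins, were low in control skin too. Of the 40 with a row, 12 had enough reads to be tested and all of those were lower, which the filter on reads makes likely for genes that were present in 1 group alone. Their sum over all 40 genes was 21.7 to 51.5 CPM in control and 0.287 to 0.863 CPM in IMQ skin. Krtap8-1 (7.39, 2.27 and 7.92 CPM in control skin), Krtap7-1 (4.10, 1.68 and 5.12) and Krtap11-1 (2.02, 2.04 and 5.75) had no count in any IMQ library.

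Regulators of the hair matrix were lower in 19 of 25 and higher in 5. Shh, the ligand that drives follicle growth, had 20.7, 20.6 and 24.4 CPM in control skin and 0.360, 0.216 and 0 CPM in IMQ skin (log2 fold change -6.72 ± 0.44 (SE), edgeR adjusted p = 2.00e-05). Lef1, a Wnt effector of the hair precursor cells, had 19.8, 16.3 and 27.2 CPM in control skin and 0.479, 1.65 and 0.503 CPM in IMQ skin (-4.60 ± 0.44 (SE)). Hoxc13, a regulator of hair keratin genes, had 25.6, 21.7 and 42 CPM in control skin and 1.62, 3.02 and 2.66 CPM in IMQ skin (-3.62 ± 0.33 (SE)). No IMQ library reached the lowest control for these genes. Foxe1 had 17.8, 13.8 and 27 CPM in control skin and 1 count in IMQ skin (count ratio 864-fold (95% interval 155 to 34161)), and Msx2 (-3.63 ± 0.31 (SE)), S100a3 of the hair cuticle (-7.15 ± 0.84 (SE)), Wnt10b (-2.94 ± 0.18 (SE)) and Bmp4 (-2.43 ± 0.16 (SE)) fell. Foxn1, the factor mutated in nude mice, went against the list, from 12.8, 6.90 and 18.5 CPM to 32, 49.9 and 33.4 CPM (1.59 ± 0.34 (SE)), as did Psors1c2 from 7.34, 6.17 and 13.9 CPM to 223, 424 and 358 CPM (5.20 ± 0.39 (SE)) and Foxq1 (2.78 ± 0.27 (SE)), 66.1% of whose exon bases overlap another gene.

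Stem cell and dermal papilla genes fell as well. In the bulge and stem cell list 14 of 20 were lower and 3 higher, and in the dermal papilla list 13 of 15 were lower and 1 higher. Lgr5, a marker of cycling follicle stem cells, had 23.5, 18.5 and 28.6 CPM in control skin and 2.58, 1.51 and 1.29 CPM in IMQ skin (log2 fold change -3.69 ± 0.29 (SE)). Lhx2, a factor of bulge stem cells, had 58.9, 60 and 65.8 CPM in control skin and 4.08, 0.934 and 0.288 CPM in IMQ skin (-5.06 ± 0.60 (SE)), and Cd34, a surface protein of bulge cells, endothelium and fibroblasts, had 304, 390.3 and 264 CPM in control skin and 94.1, 70.6 and 57.5 CPM in IMQ skin (-2.11 ± 0.22 (SE)). IMQ 1 was the highest IMQ library in each. Sox9, a factor of the outer sheath and bulge, was not called (11.9, 14.2 and 24.5 CPM in control skin and 12.9, 12.1 and 9.28 CPM in IMQ skin, log2 fold change -0.56 ± 0.28 (SE), adjusted p = 0.120), though it was called lower under library totals (-1.01, adjusted p = 0.0213). Gas1, a hedgehog co-receptor (1.50 ± 0.11 (SE)), Barx2 (1.61 ± 0.21 (SE)) and the integrin Itga6 of the basal layer (0.76 ± 0.13 (SE)) rose, and Itga6 was not called under library totals (adjusted p = 0.105). In the papilla, Corin, a membrane protease, fell from 18.7, 17.6 and 22.7 CPM to 0.300, 0.647 and 0.503 CPM (-5.35 ± 0.28 (SE)). Alx4, a papilla homeobox factor, fell from 31.6, 36.2 and 31.3 CPM to 2.58, 0.216 and 0.719 CPM (-4.75 ± 0.54 (SE)). Notum, a Wnt inhibitor, had a count ratio of 61.2-fold (95% interval 16.7 to 509.6). Crabp1, a retinoid-binding protein, rose from 8.38, 6.31 and 8.11 CPM to 18.7, 10.8 and 16.1 CPM (adjusted p = 0.00650), a call lost under library totals (adjusted p = 0.0969). Krt75 of the companion layer between the sheaths fell from 100, 60.7 and 138 CPM to 1.98, 2.95 and 0.863 CPM (-5.68 ± 0.45 (SE)).

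Sebaceous gland genes mostly fell. Of 22 tested, 17 were lower and 3 higher (median log2 fold change -2.36). The wax ester and diacylglycerol acyltransferases Awat1 (39.3, 38.3 and 49.7 CPM to 1.86, 0.287 and 1.22 CPM, log2 fold change -5.19 ± 0.41 (SE)) and Dgat2l6 (-5.57 ± 0.45 (SE)) and the desaturase Scd3 (95.2, 88.8 and 115 CPM to 2.64, 1.80 and 3.74 CPM, -5.19 ± 0.25 (SE)) were nearly lost. Mc5r, the melanocortin receptor of sebocytes, fell by less, from 15.3, 15.8 and 16.6 CPM to 4.08, 1.36 and 2.80 CPM (-2.51 ± 0.33 (SE)). Scd1, which sebocytes and adipocytes both use, had 8865, 14389 and 4523 CPM in control skin and 1368, 422 and 345 CPM in IMQ skin (-3.70 ± 0.67 (SE)) with control 2 the highest and control 3 the lowest control. Fabp5, an epidermal fatty acid-binding protein, rose from 208, 219 and 259 CPM to 3189.9, 3644 and 3811 CPM (3.96 ± 0.21 (SE)), and Acsbg1 (2.81 ± 0.22 (SE)) and Pla2g2f (2.74 ± 0.26 (SE)), which keratinocytes also express, rose with it.

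Melanocyte genes fell in 12 of 14, although BALB/c mice are albino and their melanocytes make no pigment. The sum was 501 to 691 CPM in control and 136 to 160 CPM in IMQ skin. Tyr, tyrosinase, had 28.8, 19.9 and 36.9 CPM in control skin and 1.62, 0.431 and 0.431 CPM in IMQ skin (log2 fold change -5.04 ± 0.47 (SE)). Dct had 121, 112 and 180.0 CPM in control skin and 12.7, 10.6 and 4.75 CPM in IMQ skin (-3.87 ± 0.36 (SE)). Pmel, a melanosome fibre protein, had 64.5, 66.5 and 104 CPM in control skin and 7.91, 7.54 and 3.31 CPM in IMQ skin (-3.64 ± 0.34 (SE)). All IMQ libraries lay below all control libraries for these genes. Slc45a2, a melanosome transporter, had a count ratio of 60.3-fold (95% interval 25.6 to 187). Oca2 fell by 5.30 on the log2 scale. Rab38, a GTPase of melanosome transport with other uses in keratinocytes, rose from 18.2, 12.4 and 19.9 CPM to 76.2, 87.1 and 95.1 CPM (2.36 ± 0.19 (SE)).

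In the dermis, genes of the fibrous matrix fell together. Of 28 genes of fibrillar and other collagens and of collagen processing, 25 were lower and 1 higher, with a median log2 fold change of -2.05. Their sum was 25000 to 31900 CPM in control and 3700 to 11600 CPM in IMQ skin. Col1a1 had 5473, 7126 and 7466 CPM in control skin and 2876, 1129 and 788 CPM in IMQ skin (log2 fold change -2.07 ± 0.48 (SE), edgeR adjusted p = 0.00627). Col3a1 had 7989, 10002 and 8518 CPM in control skin and 3793, 1545 and 1155 CPM in IMQ skin (-2.03 ± 0.45 (SE)). IMQ 1 was well above the other IMQ libraries in both, and still lay below every control. Col5a3 (-3.17 ± 0.43 (SE)), Col14a1 (-2.90 ± 0.32 (SE)) and the cross-linking oxidase Loxl2 (-2.90 ± 0.32 (SE)) fell most. P3h2, a prolyl hydroxylase, was called higher (log2 fold change 0.58 ± 0.17 (SE)) and was not under library totals (adjusted p = 0.571), nor without control 1, control 2, IMQ 1 or IMQ 3, where its log2 fold change was 0.52 to 0.56.

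Elastic fibre genes were lower in 13 of 15 and small leucine-rich proteoglycans in 9 of 10, with none higher in either. Fbn2 (31, 23.8 and 35.2 CPM to 2.70, 1.08 and 0.719 CPM, log2 fold change -4.28 ± 0.40 (SE)) and Fbn1 (-2.94 ± 0.41 (SE)), the fibrillins, and Mfap5, which binds them (-2.98 ± 0.18 (SE)), led the first, and Eln, elastin, had 208, 181 and 163 CPM in control skin and 94.4, 97.7 and 24.4 CPM in IMQ skin (-1.35 ± 0.44 (SE), edgeR adjusted p = 0.0279), a call that was lost without control 1 or control 2 (adjusted p = 0.0795 and 0.0601). Dcn, decorin, which binds collagen fibrils, fell from 1487, 1722 and 1326 CPM to 732, 452 and 362 CPM (-1.55 ± 0.28 (SE)), and Kera (-4.11 ± 0.66 (SE)), Omd (-2.57 ± 0.32 (SE)) and Aspn (-2.14 ± 0.33 (SE)) fell most. Fibroblast identity genes were lower in 16 of 18, among them Pdgfra, a receptor for platelet-derived growth factor and common fibroblast marker (126, 163 and 141 CPM to 60.4, 32.2 and 24.7 CPM, -1.87 ± 0.31 (SE)), Sfrp2 (-2.88 ± 0.24 (SE)) and Fap (-2.41 ± 0.27 (SE)). The matrix and the fibroblast markers thus moved in the same direction, and collagen per fibroblast was not measured.

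**Figure D4:**
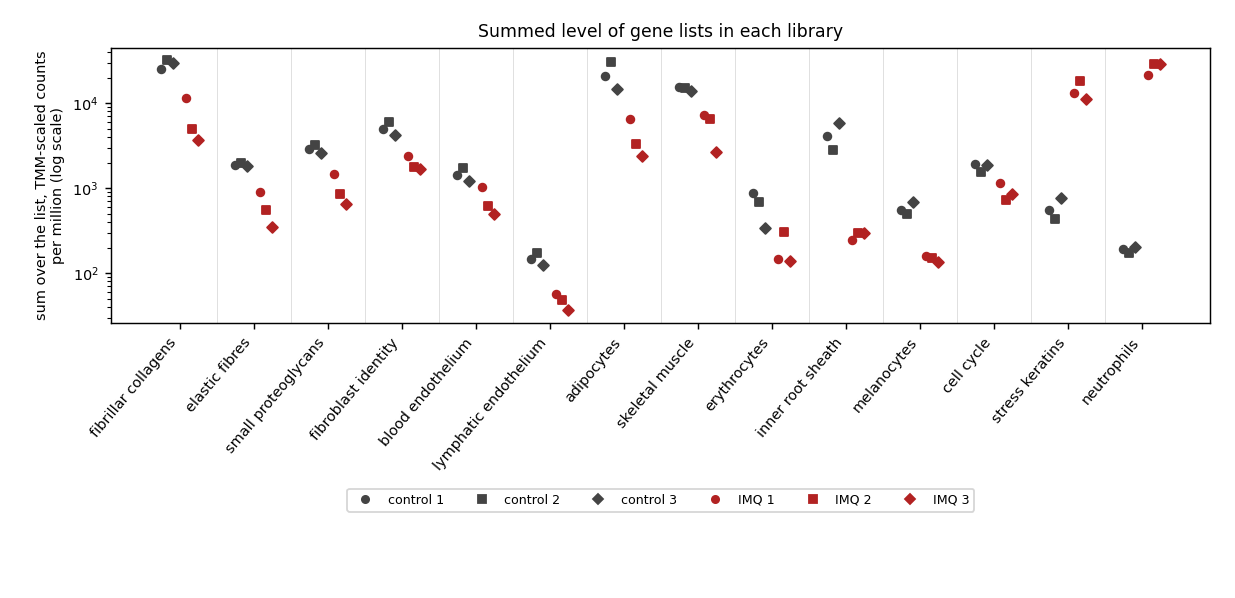
Summed CPM of 14 gene lists in each library on a log axis, with grey symbols for control and red symbols for IMQ libraries and 1 shape per replicate number. Dermal, fat and muscle sums lie lower in IMQ skin with IMQ 1 the highest of its group, and stress keratin and neutrophil sums lie far higher.

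The list of matrix proteases, their inhibitors and related genes was split. Of 21 tested, 10 were lower and 6 higher, the latter a share not far from the 24.1% of all tested genes. The neutrophil collagenase Mmp8 rose from 0.282, 0.590 and 0.242 CPM to 11.4, 41.4 and 7.84 CPM (log2 fold change 5.73 ± 0.79 (SE)), and the collagenase Mmp13 rose from 1.08, 0.318 and 0.290 CPM to 8.63, 8.69 and 5.82 CPM (3.76 ± 0.48 (SE)). Plaur, the urokinase receptor, rose from 9.89, 12.9 and 8.74 CPM to 54.5, 159 and 200.4 CPM (3.71 ± 0.46 (SE)), and the gelatinase Mmp9 rose by 1.82 ± 0.40 (SE). The inhibitor Timp4 (-2.93 ± 0.52 (SE)) and the protease Mmp19 (-2.42 ± 0.31 (SE)) fell. Mmp3, stromelysin, was not called (43.5, 56 and 56 CPM in control skin and 138, 52.2 and 50 CPM in IMQ skin), with IMQ 1 alone above the control libraries. Timp1 was called lower (-0.80 ± 0.25 (SE)) and lost the call without any 1 of the control libraries, IMQ 2 or IMQ 3, with an adjusted p of 0.0508 to 0.0790.

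Genes of the dermal-epidermal junction went both ways. Of 24 basement membrane genes 12 were lower and 6 higher, the latter a share near the 24.1% of all tested genes. Several keratinocyte parts of the anchoring complex rose: Lamb3 (16.3, 13.8 and 25.1 CPM to 67.9, 58.1 and 66.5 CPM, log2 fold change 1.80 ± 0.22 (SE)) and Lama3 (1.13 ± 0.21 (SE)) of laminin 332, Col17a1 (1.47 ± 0.22 (SE)), Col7a1 of the anchoring fibrils (1.67 ± 0.19 (SE)) and the integrin Itga6. The parts shared with vessels and mesenchyme fell, led by Frem1 (-3.97 ± 0.40 (SE)), Nid2 (-2.55 ± 0.38 (SE)) and Lamb1 (227, 266 and 229 CPM to 68.4, 32.4 and 28.5 CPM, -2.48 ± 0.32 (SE)).

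Hyaluronan genes were also divided, with 5 of 12 higher and 5 lower (2 lower without control 1, and 3 without control 2, control 3, IMQ 2 or IMQ 3). Cemip, a hyaluronidase, rose from 3.53, 2.00 and 4.49 CPM to 54.1, 64.4 and 59.1 CPM (log2 fold change 4.15 ± 0.27 (SE)). Has3, the hyaluronan synthase of keratinocytes, rose from 8.94, 11.7 and 11.5 CPM to 42.1, 49.9 and 46 CPM (2.10 ± 0.15 (SE)), and the receptor Cd44 from 185, 160.0 and 191 CPM to 425, 483 and 487 CPM (1.38 ± 0.14 (SE)). Vcan, versican, a hyaluronan-binding proteoglycan that dermal papilla cells make, fell from 230.1, 206 and 262 CPM to 24.8, 8.19 and 5.32 CPM (-4.18 ± 0.52 (SE)).

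Vessel genes fell too. Blood endothelial genes were lower in 17 of 20 and higher in none (11 lower without control 2 and 11 without IMQ 2), with a median log2 fold change of -0.98. Pecam1, an endothelial junction protein, had 167, 192 and 135 CPM in control skin and 112, 71.2 and 62.3 CPM in IMQ skin (log2 fold change -1.01 ± 0.23 (SE), edgeR adjusted p = 0.00630). Tek, the angiopoietin receptor, had 61.8, 66.7 and 46.8 CPM in control skin and 22.5, 17 and 11.9 CPM in IMQ skin (-1.76 ± 0.24 (SE)). Erg, an endothelial factor, fell by 1.47 on the log2 scale. Among 6 adhesion genes that admit leukocytes, 2 were lower and none higher (5 lower without IMQ 1). Sele, E-selectin, was not called (8.99, 12.7 and 5.70 CPM in control skin and 9.53, 3.81 and 2.80 CPM in IMQ skin, adjusted p = 0.197) but was called lower without IMQ 1 (-1.44, adjusted p = 0.0105). Icam1 was not called (22.1, 23.6 and 21.9 CPM in control skin and 28.5, 25.9 and 29.1 CPM in IMQ skin). Of 6 lymphatic genes 5 were lower, led by Lyve1 (60.4, 79.9 and 48.7 CPM to 7.31, 12.7 and 4.31 CPM, -2.96 ± 0.36 (SE)), which some macrophages share. Prox1, the lymphatic master factor, was not called (2.54, 3.31 and 2.46 CPM in control skin and 2.46, 1.22 and 2.01 CPM in IMQ skin), and was called lower under library totals (-0.97, adjusted p = 0.0360).

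Smooth muscle and pericyte genes were lower in 8 of 13, with Acta2, smooth muscle actin, going from 178, 168 and 175 CPM to 67.8, 69.7 and 34.2 CPM (log2 fold change -1.60 ± 0.25 (SE)) and Cspg4, a pericyte proteoglycan, with a fold change of -2.33 on the log2 scale. Notch3, which pericytes and keratinocytes both express, rose (1.23 ± 0.14 (SE)). Schwann cell and nerve genes were lower in 9 of 16, with Ncam1, a neural adhesion molecule, at a log2 fold change of -2.91 ± 0.32 (SE), while Erbb3 (72.3, 61.4 and 103 CPM to 309, 348 and 366 CPM, 2.11 ± 0.20 (SE)) and L1cam (1.32 ± 0.14 (SE)) rose.

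Tissues beneath the dermis gave lower counts. Adipocyte genes were lower in 17 of 19 (median log2 fold change -2.75), and their sum was 14600 to 30200 CPM in control and 2420 to 6500 CPM in IMQ skin. Adipoq, adiponectin, had 579.6, 859 and 282 CPM in control skin and 71.7, 26.9 and 19.9 CPM in IMQ skin (log2 fold change -3.86 ± 0.59 (SE), edgeR adjusted p = 0.000803). Fabp4 had 2932, 4228 and 1405 CPM in control skin and 393, 241 and 159 CPM in IMQ skin (-3.43 ± 0.49 (SE)). Lep, leptin, had 64.4, 141 and 27.2 CPM in control skin and 9.47, 5.10 and 1.01 CPM in IMQ skin (-3.88 ± 0.78 (SE)). Control 2 was the highest library and control 3 the lowest control for all 3, and every IMQ library lay below. Skeletal muscle genes were lower in 14 of 20 and higher in none (2 higher without IMQ 3), and their sum was 14000 to 15300 CPM in control and 2640 to 7310 CPM in IMQ skin, with Acta1, skeletal actin, at 3625, 4035 and 3833 CPM in control skin and 1896, 1500.1 and 720.0 CPM in IMQ skin (-1.48 ± 0.34 (SE)) and Pvalb of fast fibres at 555, 545 and 429.9 CPM in control skin and 49.1, 97.5 and 42 CPM in IMQ skin (-3.02 ± 0.33 (SE)). Erythrocyte genes were lower in 5 of 6, with a sum of 340 to 885 CPM in control and 141 to 309 CPM in IMQ skin. How much fat, muscle or blood each biopsy held was not measured, and its part in the other dermal values was not tested.

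Of the inflammatory genes, the IL-17 and IL-23 axis rose as a group: 18 of 20 were higher and none lower, with a median log2 fold change of 2.28. The cytokines themselves were scarce. Il17a had 0, 0 and 0.0483 CPM in control skin and 1.92, 1.94 and 2.73 CPM in IMQ skin, which is 1 count in all control libraries together (count ratio 139-fold (95% interval 24.4 to 5562)). Il17f had 0, 0.136 and 0.242 CPM in control skin and 5.33, 4.24 and 4.67 CPM in IMQ skin (log2 fold change 5.17 ± 0.57 (SE), edgeR adjusted p = 0.000166). Il22 had no count in control skin and 1.50, 1.01 and 0.863 CPM in IMQ skin, at least 7.97-fold higher, and Il23a, the specific subunit of IL-23, had 0.188, 0.0454 and 0 CPM in control skin and 1.92, 8.55 and 6.40 CPM in IMQ skin (6.04 ± 0.87 (SE)). Il17c, which keratinocytes make, had a count ratio of 338-fold (95% interval 60 to 13396). No groups overlapped for any of these. Downstream, Il22ra1, the epithelial IL-22 receptor, rose from 10.3, 11 and 17.5 CPM to 87, 126 and 123 CPM (3.11 ± 0.25 (SE)). Nfkbiz, a nuclear co-factor of IL-17 signals, rose from 30.0, 35.3 and 45.7 CPM to 164, 208 and 225 CPM (2.43 ± 0.19 (SE)). Ccl20, the ligand of the receptor on Th17 and gamma-delta T cells, had 0.518, 0.409 and 1.01 CPM in control skin and 1.50, 4.31 and 3.16 CPM in IMQ skin (2.19 ± 0.51 (SE)).

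IL-1 family genes were higher in 13 of 17 and lower in 2. Il1b, a cytokine of neutrophils and macrophages, had 1.18, 1.82 and 1.16 CPM in control skin and 350.0, 1296 and 1511 CPM in IMQ skin (log2 fold change 9.56 ± 0.69 (SE), edgeR adjusted p = 2.96e-05), with IMQ 1 well below the other IMQ libraries. Il1f6 and Il1f9, the IL-36 alpha and gamma of keratinocytes, rose with less spread among the IMQ libraries, from 15.8, 12.8 and 20.4 CPM to 401, 577 and 660.0 CPM (5.06 ± 0.27 (SE)) and from 20.5, 17.9 and 33.1 CPM to 520.2, 789 and 777 CPM (4.87 ± 0.31 (SE)). Il33, an alarmin of stressed cells, rose from 25.3, 20.9 and 19.5 CPM to 150.1, 134 and 94.6 CPM (2.53 ± 0.20 (SE)), while Il1r1 (-1.64 ± 0.20 (SE)) and the IL-33 receptor Il1rl1 (-1.47 ± 0.35 (SE)), which mesenchyme and mast cells carry, fell. Of 7 genes of the IL-20 family 6 were higher, with Il19 at 0.0471, 0 and 0 CPM in control skin and 3.66, 5.17 and 4.10 CPM in IMQ skin (count ratio 273-fold (95% interval 48.4 to 10841)) and the receptor chain Il20ra at 2.40 ± 0.29 (SE) on the log2 scale. Il24 was too scarce for the test, with no count in control skin and 0.539, 0.575 and 0.0719 CPM in IMQ skin.

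Neutrophil genes rose together, with 15 of 18 genes higher, a median log2 fold change of 4.31 and a sum of 174 to 201 CPM in control and 21200 to 29000 CPM in IMQ skin. In IMQ skin that sum is mostly S100a8 and S100a9, which keratinocytes make too. Trem1, an activating receptor of myeloid cells, had 0.282, 0.0908 and 0.193 CPM in control skin and 16.7, 55.1 and 53.9 CPM in IMQ skin (log2 fold change 7.75 ± 0.65 (SE)). Cxcr2, the chemokine receptor of neutrophils, had 3.67, 3.86 and 4.30 CPM in control skin and 76.2, 126 and 123 CPM in IMQ skin (4.78 ± 0.23 (SE)). Retnlg had 1.32, 0.863 and 0.869 CPM in control skin and 18.6, 207 and 25.5 CPM in IMQ skin (6.35 ± 1.09 (SE)). Ly6g, the neutrophil surface marker, was too scarce for the test, with 0, 0 and 0.0966 CPM in control skin and 0.120, 1.15 and 0.431 CPM in IMQ skin. Mpo, the peroxidase of granules made in bone marrow precursors, went the other way from 2.64, 4.04 and 4.88 CPM to 0, 0.216 and 0.288 CPM (-4.54 ± 0.64 (SE)). Of 9 neutrophil-attracting chemokines, factors and receptors 7 were higher. Cxcl1 had 0.565, 0.499 and 0.290 CPM in control skin and 2.94, 4.74 and 6.18 CPM in IMQ skin (3.33 ± 0.41 (SE)), a mean of 2.08 FPKM in IMQ skin where Cxcl2 had 229 FPKM, and Csf3, the growth factor of neutrophils, had a count ratio of 105-fold (95% interval 35.4 to 513). Cxcl5 was not tested and was seen mostly in IMQ 1 (4.31, 0.647 and 0.144 CPM), and the platelet chemokine Pf4 fell (-1.79 ± 0.33 (SE)).

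**Figure D5:**
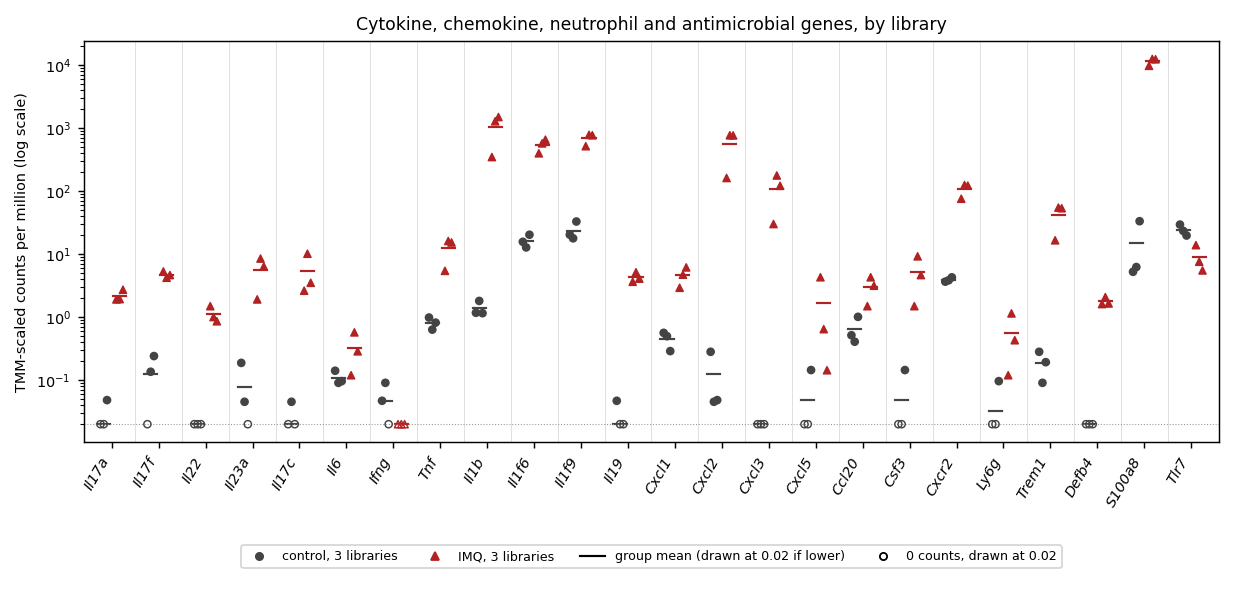
CPM of 24 cytokine, chemokine, neutrophil and antimicrobial genes in each library on a log axis, with control libraries as grey circles, IMQ libraries as red triangles, bars at the group means and open symbols for 0 counts. Il1b, Cxcl2, Cxcl3, Il23a and Csf3 are lowest in IMQ 1 within the IMQ group, while Il17a, Il17f and the IL-36 genes Il1f6 and Il1f9 differ less among the 3 IMQ libraries, and Tlr7 is lower in IMQ skin.

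Antimicrobial genes were higher in 14 of 18. Besides Defb3 and calprotectin, Defb14 rose from 4.80, 3.72 and 4.15 CPM to 57.4, 92.6 and 84.1 CPM (log2 fold change 4.20 ± 0.22 (SE)). S100a7a, psoriasin, rose from 2.35, 2.32 and 3.04 CPM to 166, 218 and 172 CPM (6.17 ± 0.19 (SE)). Lcn2, which binds bacterial siderophores, rose from 19.2, 11.3 and 11.7 CPM to 199, 483 and 188 CPM (4.37 ± 0.44 (SE)). Defb4, the homologue of the human psoriatic defensin, had no count in control skin and 1.62, 2.08 and 1.65 CPM in IMQ skin (at least 12.7-fold higher). The lysozymes Lyz1 (-2.25 ± 0.45 (SE)) and Lyz2 (-0.67 ± 0.24 (SE)) were called lower, the call for Lyz2 being lost without control 1, control 2, IMQ 2 or IMQ 3 (adjusted p = 0.0654 to 0.151).

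Other chemokines went both ways, with 5 of 18 higher and 7 lower (3 and 9 under library totals). Their share higher was near the 24.1% of all tested genes. Ccl3 (0.235, 0.182 and 0.386 CPM to 24.3, 137 and 134 CPM, log2 fold change 8.50 ± 0.85 (SE)) and Ccl4 (0.188, 0.272 and 0.435 CPM to 19.1, 103 and 89.2 CPM, 7.85 ± 0.79 (SE)), made by activated myeloid cells, rose most, and IMQ 1 was the lowest of its group. Cxcl16, a membrane-bound chemokine, rose by 1.97 ± 0.15 (SE). The eosinophil attractants Ccl11 (26, 30.8 and 16.3 CPM to 5.03, 4.88 and 4.03 CPM, -2.39 ± 0.26 (SE)) and Ccl24 (-2.41 ± 0.30 (SE)), the interferon-gamma target Cxcl9 (9.98, 4.86 and 7.34 CPM to 1.50, 2.08 and 1.58 CPM, -2.10 ± 0.33 (SE)) and Cxcl14 (-2.02 ± 0.18 (SE)) fell. Cxcl10 was not called (1.27, 2.00 and 1.59 CPM in control skin and 1.38, 1.51 and 1.51 CPM in IMQ skin).

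T cell genes changed unevenly and at low counts, with a sum of 46.2 to 61 CPM in control and 74.8 to 110 CPM in IMQ skin. Of 24 tested, 10 were higher and 3 lower (6 and 3 under library totals). Icos, a co-stimulator of activated T cells, rose from 2.07, 0.999 and 1.35 CPM to 10.3, 7.11 and 8.99 CPM (log2 fold change 2.58 ± 0.31 (SE)). Pdcd1, PD-1, rose from 0.235, 0.499 and 0.338 CPM to 3.36, 2.37 and 3.16 CPM (3.02 ± 0.38 (SE)), and Cd5 by 2.30 ± 0.31 (SE). Cd3e, a chain of the T cell receptor complex, had 0.942, 1.18 and 1.55 CPM in control skin and 2.70, 2.51 and 2.37 CPM in IMQ skin (1.05 ± 0.30 (SE)), a call lost under library totals (adjusted p = 0.126) and without control 1 or control 2 (adjusted p = 0.0670 and 0.0531). The cytotoxic granzyme Gzma (5.32, 3.54 and 4.54 CPM to 1.02, 1.01 and 1.65 CPM, -1.87 ± 0.32 (SE)), Cd2 (-1.33 ± 0.44 (SE)) and Lck (-1.05 ± 0.31 (SE)) were called lower. The call for Lck was lost without control 1 (adjusted p = 0.0648), and that for Cd2 without control 1, control 2 or IMQ 2 (adjusted p = 0.0598 to 0.119). Among gamma-delta T cell genes 5 of 11 were higher and 1 lower (3 higher and 3 lower under library totals, and 3 higher without control 1 or without control 2). Blk, a kinase of IL-17-making gamma-delta T cells and B cells, rose from 0.565, 1.09 and 0.58 CPM to 5.99, 5.39 and 5.90 CPM (2.93 ± 0.32 (SE)). Cd163l1, Scart1 of the same T cells, rose from 2.12, 1.82 and 0.966 CPM to 16, 9.70 and 17.3 CPM (3.13 ± 0.34 (SE)). Trgc1, a gamma chain constant gene, rose from 1.27, 0.636 and 1.30 CPM to 3.18, 2.08 and 3.81 CPM (1.50 ± 0.38 (SE)). Trdc, the delta chain constant gene, was called higher (log2 fold change 0.782, edgeR adjusted p = 0.0385). That call was lost under library totals (adjusted p = 0.340) and with no filter (adjusted p = 0.0884). It was also lost without any 1 of the control libraries, IMQ 1 or IMQ 3 (adjusted p = 0.0579 to 0.113). Sox13 fell (-1.36 ± 0.26 (SE)), a gene that mesenchymal cells also express.

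Of 20 Langerhans and dendritic cell genes 5 were higher, a share near the 24.1% of all tested genes, and 2 lower (3 and 5 under library totals, 3 higher without control 2 and 5 lower without IMQ 1), and the median log2 fold change of 0.23 became -0.22 under library totals. Cd80, a co-stimulator, rose from 2.78, 2.09 and 2.03 CPM to 6.11, 12.8 and 13.7 CPM (log2 fold change 2.23 ± 0.34 (SE)). Itgax, CD11c, rose from 6.26, 7.35 and 7.25 CPM to 20.6, 18.5 and 32.5 CPM (1.78 ± 0.23 (SE)). Epcam, which Langerhans cells share with follicle keratinocytes, rose from 90.2, 72 and 109.7 CPM to 239, 299 and 360.1 CPM (1.72 ± 0.21 (SE)). Cd207, langerin, had 12.8, 11.5 and 15.1 CPM in control skin and 17.7, 19.9 and 27.5 CPM in IMQ skin (0.72 ± 0.20 (SE)) and was not called under library totals (adjusted p = 0.278) or without control 1, control 2 or IMQ 3 (adjusted p = 0.0522, 0.0532 and 0.0375, the last with a log2 fold change of 0.54). The dermal dendritic cell lectins Mgl2 (13.9, 22.3 and 23.9 CPM to 2.88, 1.44 and 2.09 CPM, -3.21 ± 0.31 (SE)) and Cd209a (-2.52 ± 0.42 (SE)) fell.

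Macrophage genes were lower in 8 of 22 and higher in 6 (15 and 4 under library totals). The share higher was near the 24.1% of all tested genes, and the share lower not far above their 26.9%. Mrc1, the mannose receptor of resident macrophages, fell from 371, 288 and 247 CPM to 149, 77.2 and 59.6 CPM (log2 fold change -1.66 ± 0.33 (SE)), with Mertk (-1.89 ± 0.33 (SE)) and the monocyte marker Ly6c2 (-2.58 ± 0.36 (SE)). Adgre1, F4/80, was not called (208, 105 and 124 CPM in control skin and 127, 119 and 89.7 CPM in IMQ skin), and was called lower under library totals (-0.82, adjusted p = 0.0303) and by limma on log2(FPKM + 1) and log2(FPKM + 0.1) (adjusted p = 0.0446 and 0.0447). Arg1, arginase, which keratinocytes make too, rose from 10.4, 5.72 and 9.27 CPM to 167, 214 and 233 CPM (4.59 ± 0.25 (SE)). Cd14 rose from 32.5, 24 and 19.7 CPM to 163, 639.5 and 551 CPM (4.15 ± 0.50 (SE)). Spp1, osteopontin, rose from 5.93, 6.13 and 5.84 CPM to 28.9, 134 and 156 CPM (4.15 ± 0.57 (SE)). Mast cell genes were lower in 9 of 13, with the chymase Cma1 at 53.2, 67.7 and 38.4 CPM in control skin and 22.6, 24 and 20.2 CPM in IMQ skin (-1.25 ± 0.20 (SE)) and the carboxypeptidase Cpa3 at 54.1, 65.6 and 37.6 CPM in control skin and 21, 9.27 and 9.71 CPM in IMQ skin (-1.97 ± 0.34 (SE)). Hdc, histidine decarboxylase, rose (11.4, 15.2 and 14.3 CPM to 60.5, 197 and 189 CPM, 3.44 ± 0.42 (SE)) in the opposite direction to these proteases, and is known from neutrophils as well as mast cells. Among 11 B cell and plasma cell genes 4 were higher and 3 lower, with a median log2 fold change of 0.44 that became -0.01 under library totals. For this list the share lower was near the 26.9% of all tested genes. Jchain fell (-2.64 ± 0.43 (SE)). Igkc fell (7.91, 7.85 and 7.83 CPM to 0.180, 0.359 and 1.08 CPM, -3.89 ± 0.47 (SE)). Igha rose (1.62 ± 0.31 (SE)), the last 2 being immunoglobulin genes whose reads can be split among close copies, and Sdc1 (1.82 ± 0.21 (SE)) and Xbp1 (1.31 ± 0.19 (SE)), which keratinocytes express, rose.

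The receptor for IMQ fell, as did many interferon targets. Tlr7 had 29.6, 23.5 and 19.9 CPM in control skin and 14, 7.61 and 5.54 CPM in IMQ skin (log2 fold change -1.42 ± 0.32 (SE), edgeR adjusted p = 0.00601). Tlr2, for bacterial lipoproteins, rose from 8.90, 7.40 and 9.18 CPM to 20.3, 34.9 and 25.2 CPM (1.66 ± 0.22 (SE)), and the adaptor ligase Traf6 from 48.9, 48.2 and 52.9 CPM to 133, 195 and 190.0 CPM (1.79 ± 0.16 (SE)). Siglech, a marker of plasmacytoid dendritic cells, was not called (1.84, 4.77 and 2.42 CPM in control skin and 2.10, 1.22 and 2.16 CPM in IMQ skin), and was called lower under library totals (adjusted p = 0.0428). In the list of plasmacytoid dendritic cell and Toll-like receptor 7 genes 5 of 20 were higher and 5 lower (9 lower under library totals, and 3 without control 1). These counts of 5 are near the 24.1% and 26.9% of all tested genes, and the list's median log2 fold change was -0.07. Of 30 interferon-stimulated genes 14 were lower and 1 higher. Ifi204, a DNA sensor, fell from 35.6, 35.4 and 34.2 CPM to 5.63, 6.68 and 5.61 CPM (-2.55 ± 0.14 (SE)). Ifi27l2a fell from 471, 549 and 168 CPM to 34.9, 83.5 and 39 CPM (-2.92 ± 0.50 (SE)) and Ifit3b fell by 1.82 on the log2 scale. Ifit1 was not called (6.59, 6.67 and 9.47 CPM in control skin and 2.22, 8.69 and 3.45 CPM in IMQ skin), and was called lower under library totals (adjusted p = 0.0485) and without IMQ 2 (adjusted p = 0.00941). Isg15 was called higher (12.1, 11.8 and 15.3 CPM in control skin and 8.93, 46 and 52 CPM in IMQ skin, 1.45 ± 0.54 (SE), edgeR adjusted p = 0.0451), although IMQ 1 lay below every control, and was not called under library totals (adjusted p = 0.128) or without any 1 of the control libraries, IMQ 2 or IMQ 3 (adjusted p = 0.0805 to 0.131), while 2 genes of the list were called higher without IMQ 1. The 3 interferon genes in the table had too few counts and were not tested.

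Of 16 STAT3 and SOCS genes 7 were higher and 2 lower (6 and 4 under library totals). Stat3 rose from 153, 161 and 174 CPM to 405, 472 and 439 CPM (log2 fold change 1.43 ± 0.13 (SE)), and the feedback inhibitor Socs3 rose from 13.5, 19.7 and 20.3 CPM to 102, 159 and 197 CPM (3.09 ± 0.27 (SE)). Osm, oncostatin M, rose from 0.706, 0.272 and 0.483 CPM to 19.1, 55.8 and 49.5 CPM (6.39 ± 0.53 (SE)). Il6st, the shared receptor chain gp130, fell (-0.94 ± 0.16 (SE)). Socs2 fell (-1.34 ± 0.20 (SE)). Complement genes were lower in 13 of 19 and higher in none, with C3 at 1136, 859.8 and 633 CPM in control skin and 457, 539 and 267 CPM in IMQ skin (-1.06 ± 0.30 (SE), edgeR adjusted p = 0.0165, and 0.0649 without control 1), the decay factor Cd55 at -2.02 ± 0.23 (SE) and Cd59a at -1.99 ± 0.30 (SE) on the log2 scale. Cfb is not read here, since 79.5% of its exon bases overlap another gene and it was near 0 in every library.

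In the MAP kinase list 13 of 28 were higher and 7 lower, with a median log2 fold change of 0.32 that became -0.13 under library totals. The share lower was near the 26.9% of all tested genes. Mapk13, p38 delta of keratinocytes, rose from 48, 38.3 and 56.2 CPM to 359, 549 and 623 CPM (log2 fold change 3.43 ± 0.25 (SE)), and the phosphatases Dusp5 (4.94, 5.90 and 8.98 CPM to 54.7, 114 and 124 CPM, 3.88 ± 0.36 (SE)) and Dusp14 (3.68 ± 0.23 (SE)) rose, while Dusp10 (16.9, 16.6 and 17.1 CPM to 3.96, 3.02 and 2.73 CPM, -2.37 ± 0.19 (SE)), Dusp4 (-1.40 ± 0.33 (SE)) and the kinase Mapk9 (-0.94 ± 0.17 (SE)) fell. Phosphatases of the family thus moved in both directions. Of 23 Rap1 genes 6 were higher and 6 lower, shares near the 24.1% and 26.9% of all tested genes (4 and 10 under library totals). The median log2 fold change of the list, -0.06, was that of all tested genes, so the list as a whole did not stand out. Rasgrp1 (11.6, 7.40 and 11.8 CPM to 67.1, 88.6 and 73.3 CPM, 2.89 ± 0.21 (SE)), Rap1gap (2.72 ± 0.19 (SE)) and Rassf5 (1.67 ± 0.19 (SE)) rose, and Rap1gap2 (-1.43 ± 0.18 (SE)), Rapgef2 (-1.09 ± 0.15 (SE)) and Rasgrp3 (-1.09 ± 0.29 (SE)) fell. In the AP-1 list 5 of 10 were higher and none lower, with Junb at 65.4, 65.1 and 92.6 CPM in control skin and 392, 735 and 835 CPM in IMQ skin (3.14 ± 0.31 (SE)) and Fos at 21.8, 17.8 and 23.9 CPM in control skin and 64.2, 132 and 188 CPM in IMQ skin (2.59 ± 0.36 (SE)). Of 8 stress and dissociation response genes 7 were higher, among them Hspa1b (32.2, 27.4 and 49.1 CPM to 233, 368 and 346 CPM, 3.12 ± 0.27 (SE)), and the part of tissue handling in the AP-1 values was not tested.

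Several ligands of the EGF receptor rose, and Egfr itself was not called (131, 129 and 142 CPM in control skin and 96.6, 134 and 106 CPM in IMQ skin). In the list of ligands and receptors 10 of 14 were higher and 3 lower (1 or 2 lower when any 1 library was left out). Hbegf rose from 4.85, 4.58 and 6.76 CPM to 109, 163 and 123 CPM (log2 fold change 4.61 ± 0.22 (SE)). Tgfa rose from 18.3, 13.8 and 25.3 CPM to 184, 248 and 207 CPM (3.48 ± 0.24 (SE)). Areg rose from 3.44, 2.45 and 5.07 CPM to 11.6, 17.7 and 16.1 CPM (2.05 ± 0.30 (SE)). Ereg (2.63 ± 0.35 (SE)), Epgn (2.13 ± 0.34 (SE)) and Nrg1 (2.95 ± 0.37 (SE)) rose too. Egf itself was called lower (-0.93 ± 0.34 (SE)), a call lost without any 1 of the control libraries, IMQ 2 or IMQ 3 (adjusted p = 0.0802 to 0.121), and the feedback inhibitor Errfi1 fell (-1.04 ± 0.18 (SE)).

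Wnt genes were lower in 14 of 26 and higher in 5. The ligands went both ways: Wnt4 (38.1, 38.7 and 52.4 CPM to 168, 241 and 201 CPM, log2 fold change 2.24 ± 0.19 (SE)), Wnt7b (2.04 ± 0.21 (SE)) and Wnt16 (3.56 ± 0.32 (SE)) rose, and Wnt10b (20.1, 21.1 and 24.7 CPM to 2.76, 3.23 and 2.59 CPM, -2.94 ± 0.18 (SE)) and Wnt11 (27.5, 19.7 and 32.3 CPM to 2.82, 5.10 and 2.80 CPM, -2.89 ± 0.29 (SE)) fell. Rspo2, an enhancer of Wnt signals in the papilla, had a count ratio of 92.2-fold (95% interval 25.3 to 765), lower in IMQ skin. Axin2, a common readout of Wnt activity, was not called (18.9, 22.7 and 33.2 CPM in control skin and 28.9, 27.6 and 37.2 CPM in IMQ skin, 0.32 ± 0.22 (SE)). Of 18 TGF-beta family genes 9 were lower and 3 higher (none higher under library totals), with Smad3 going from 46.5, 44.4 and 46.6 CPM to 20.9, 12.8 and 11.3 CPM (-1.61 ± 0.22 (SE)).

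In the glycolysis and hypoxia list 14 of 24 were higher and 2 lower (9 and 3 under library totals). Slc2a1, the glucose transporter GLUT1, rose from 24.6, 24.7 and 22.2 CPM to 211, 242 and 249 CPM (log2 fold change 3.29 ± 0.13 (SE)). Egln3, a hypoxia-induced hydroxylase, rose from 32.4, 28.4 and 34.9 CPM to 384, 676 and 786 CPM (4.27 ± 0.29 (SE)). Hif1a rose from 89, 73.3 and 86.2 CPM to 284, 356 and 317 CPM (1.95 ± 0.14 (SE)). Ldha was not called (787, 955 and 775 CPM in control skin and 1159, 1132 and 1035 CPM in IMQ skin). Adm, adrenomedullin, fell (-1.85 ± 0.20 (SE)). Of 17 NRF2 and aryl hydrocarbon receptor targets 9 were higher and 5 lower, the latter a share near the 26.9% of all tested genes. Slc7a11, the cystine transporter, rose from 4.43, 2.50 and 8.45 CPM to 390.0, 505 and 382 CPM (6.38 ± 0.44 (SE)). Nqo1 rose by 1.47 ± 0.15 (SE), whereas Cyp1a1, the classical aryl hydrocarbon receptor target, fell (-0.99 ± 0.26 (SE)). In the nitric oxide, polyamine and eicosanoid list 11 of 18 were higher and 1 lower. Ptgs2, cyclooxygenase 2, had 1.74, 1.50 and 3.09 CPM in control skin and 45.8, 149.8 and 228 CPM in IMQ skin (6.06 ± 0.64 (SE)). Pla2g4d, a cytosolic phospholipase of psoriatic skin, had 0.282, 0.227 and 0.628 CPM in control skin and 112, 153 and 117 CPM in IMQ skin (8.38 ± 0.30 (SE)), and the polyamine enzyme Sms fell (-1.69 ± 0.16 (SE)).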

How the data were processed

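Total RNA of back skin was sequenced from libraries made with the NEBNext Ultra RNA kit, and how RNA was selected is not given in the sources used here. Per the submitters' processing notes, reads were aligned with HISAT2 to GRCm38 and counted per gene with HTSeq 0.13.5, whose overlap mode and strand setting are not given in the sources used here. The deposited table holds read counts as the authors counted them and FPKM values that the authors normalized by gene length and library size. The counts were used for all tests, and FPKM served to compare levels between genes and for an alternative fit.

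Genes were filtered with filterByExpr, scaled with TMM and tested with the quasi-likelihood test of edgeR 4.0.16 in R 4.3.3, 3 libraries against 3, with no covariate and Benjamini-Hochberg adjustment over all 15976 genes tested. Calls needed an adjusted p below 0.05 with a log2 fold change beyond 0.58 either way. Each SE was the fitted log2 fold change before shrinkage, without its sign, divided by the square root of the test's F statistic. The log2 fold change printed beside it is the shrunken value that edgeR reports. DESeq2 1.42.0, limma 3.58.1 on log2(FPKM + 1) and log2(FPKM + 0.1), 2 other scalings, no filter, all 9 libraries, a threshold of 1, a replicate block and leaving out each library were run as alternatives. Counts were also simulated with 87 genes changed by a log2 fold of 1 and 108 by 2, in both directions. Of these, 46% and 95.4% were called, with 11 calls among 15291 unchanged genes. In the data 51.0% of the tested genes were called, a far larger share than was changed here. The simulated rates therefore do not give the power or the false calls of this comparison.

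The 71 gene lists (1385 distinct genes) and the members were chosen with earlier results of these data known. Genes are named where they were marked as lead genes of a list, were among the 10 largest fitted rises or falls with separate groups and a mean of at least 1 CPM, were among the 3 largest fitted rises or falls called in a list, went against their list, or had the 5 highest mean FPKM in a group. Ddx3y, Egfr, Lce1e, Lce1l, Lce1m, Lce3c, Ly6g and Sprr4 were chosen after their values were seen. A group with no counts was set at 3 counts per library (0.136 to 0.216 CPM) for a lower bound of the fold. A group with 1 to 3 counts was given as a ratio of scaled counts with an exact 95% interval, which covers counting error only. With no strand setting given, reads of overlapping genes cannot be told apart, and 12 list symbols were not matched. Promoter sequences are from RefSeq. Scripts ran in Python 3.11.15 with pandas 2.3.3. Values of some listed genes are not reported here, although the counts of each list include them.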

Additional observations from a re-analysis of the deposited data

How the results depend on the processing

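Of 388 named genes tested, no called gene changed direction under any alternative, and 360 to 388 kept their side of the threshold. Counts of genes called moved by over 1.5 times in at least 1 direction with library totals and with the limma fits, which changed test, filter, scaling and unit together. With library totals only, 2390 genes were higher and 6854 lower. Limma on log2(FPKM + 1) called 2131 higher, and limma on log2(FPKM + 0.1) called 7057 lower. The cause of the difference between count and FPKM fits was not tested. Leaving out 1 library gave 3644 to 4163 genes higher and 3728 to 4731 lower. RLE scaling gave 3988 and 4182, DESeq2 gave 4226 and 4428, no filter gave 4015 and 4708, all 9 libraries in 1 fit gave 3954 and 4103, and a threshold of 1 gave 2634 and 3138. Over all settings, 365 to 497 distinct list genes were higher and 368 to 563 lower. Among the genes described with values in the text, the calls for C3, Cd207, Flg2, Gzma, Hoxa9, Lyz2 and Timp1 were lost with all 9 libraries in 1 fit. Both limma fits lost Cd207, Cd3e, Crabp1, Gata3, Isg15, Itga6, P3h2 and Trdc and called Adgre1, Ifit1 and Sox9 lower. Limma on log2(FPKM + 1) also lost Egf, Lama3 and Nrg1. With the replicate number as a block, 3799 genes were higher and 4245 lower, and of the named genes Isg15, P3h2, Nrg2, Ccl27a and Trdc were no longer called. The numbers share only a label: deviations from the group means of same-numbered libraries correlated at 0.0077, -0.060 and 0.205 across genes, and the pairing is not given by the labels. Depth limits the scarce cytokines, since 3 counts correspond to 0.136 to 0.216 CPM, and intervals cover counting error only.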

Other observations

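Cholesterol synthesis genes, which were not described above, rose together: 21 of 24 were higher and 1 lower in IMQ skin (none lower without any 1 of the control libraries, IMQ 2 or IMQ 3, and 2 without IMQ 1), with a median log2 fold change of 1.45. Sqle, squalene epoxidase, had 75.1, 69.9 and 111 CPM in control skin and 426, 549 and 516 CPM in IMQ skin (log2 fold change 2.54 ± 0.21 (SE)), and Abcg1, a sterol exporter, had 22.1, 20.7 and 16.4 CPM in control skin and 80.4, 102 and 97.7 CPM in IMQ skin (2.24 ± 0.16 (SE)). Gasdermins, which form membrane pores when cleaved, went both ways: Gsdmc rose from 6.50, 4.68 and 7.63 CPM to 204, 265 and 261 CPM (5.28 ± 0.22 (SE)) and Gsdma from 65.8, 52.9 and 79 CPM to 453, 699 and 649.6 CPM (3.19 ± 0.23 (SE)), while Gsdma3 fell from 3.11, 1.18 and 3.82 CPM to 0.240, 0.359 and 0.0719 CPM (-3.55 ± 0.65 (SE)). Retinoid genes were also divided, with 8 of 17 higher and 5 lower (6 and 9 under library totals, and 8 lower without IMQ 1). Their share lower was near the 26.9% of all tested genes. Dhrs9, a retinol dehydrogenase, rose from 9.32, 8.44 and 12.8 CPM to 166, 249.7 and 218 CPM (4.38 ± 0.23 (SE)), and Crabp2, which carries retinoic acid to its nuclear receptors, rose from 15.8, 16.6 and 18.8 CPM to 192, 232 and 236 CPM (3.69 ± 0.14 (SE)). Rbp4, the plasma retinol carrier, fell from 101, 156 and 69.9 CPM to 22.7, 12.4 and 7.19 CPM (-2.95 ± 0.44 (SE)), and Rarres1, a retinoid-responsive gene, fell from 91.4, 107 and 123 CPM to 20.0, 22.8 and 22.4 CPM (-2.31 ± 0.14 (SE)).

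Of 28 Hox genes, which hold positional identity, 5 were higher and 10 lower (2 and 15 under library totals, with 6 to 9 lower when 1 library was left out, and 3 higher and 6 lower without control 1 or without IMQ 2). Hoxa9 rose from 3.34, 6.13 and 7.20 CPM to 14.6, 14.6 and 15.1 CPM (log2 fold change 1.41 ± 0.27 (SE), adjusted p = 0.0568 with all 9 libraries in the fit), whereas Hoxc8 fell from 43.3, 60 and 33.4 CPM to 11.1, 6.61 and 5.39 CPM (-2.56 ± 0.31 (SE)) and Hoxd8 from 42.7, 47.3 and 46.2 CPM to 15.6, 9.34 and 8.34 CPM (-2.02 ± 0.23 (SE)). In the circadian clock list 6 of 19 were higher and 4 lower, and the median of 0.24 became -0.21 under library totals. These counts are not far from the 24.1% and 26.9% of all tested genes. Cry1, a repressor of the clock, rose from 11.4, 10.3 and 14.2 CPM to 28.7, 48.1 and 41.9 CPM (1.72 ± 0.22 (SE)), and Nr1d1, another repressor, fell from 65.1, 97.9 and 58.7 CPM to 43.3, 20.9 and 34 CPM (-1.17 ± 0.28 (SE)). The time of day of collection is not given in the sources used here, and its part in these values was not tested. Cytosolic ribosomal protein genes were higher in 59 of 80, but in 13 under library totals, and nuclear genes of the respiratory chain were higher in 4 and lower in 7 of 79, against 1 and 31 under library totals, so both lists depended on the scaling. Rps12 had 1091, 1087 and 1057 CPM in control skin and 2368, 3091 and 3698 CPM in IMQ skin (1.50 ± 0.22 (SE)).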
